A study of Mus musculus with 24 samples.

Results

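The mRNA levels of 9 corepressor genes whose products are known partners of RUNX transcription factors were followed across 8 groups of mouse lymphoid progenitor cells. The genes are the Groucho family members *Tle1*, *Tle3* and *Tle4*, the ETO family members *Cbfa2t2* and *Cbfa2t3*, the scaffolds *Sin3a* and *Ncor1*, and the histone deacetylases *Hdac1* and *Hdac3*. They were taken by symbol, and all 9 were found once in each of 2 tables that list 55487 genes. The study asked how RUNX factors hold back or drive the T-lineage program before and after Notch signaling. Its methods included ChIP-seq, single-cell RNA sequencing and mass spectrometry of RUNX1-bound proteins, among which it lists TLE3. Only its QuantSeq 3′ mRNA sequencing of 24 libraries, 3 in each group, was used here.

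All cells were of Cas9-LP, lines made from fetal liver progenitors of *Ebf1*-deficient mice with a Rosa26-Cas9 knock-in, so that the controls share this background and express Cas9. Reads on *Ebf1* were still counted in every group, with means of 161.0 to 333.7 CPM, and their origin was not tested. The lines grow with SCF, Flt3L and IL-7 on mitomycin C-treated OP9 stroma. Each group received a retrovirus that carries an sgRNA and the surface marker hNGFR, and hNGFR+CD45+ cells were sorted 5 days later as an edited pool, not as clones. In the first experiment, cells carrying sgCont, which targets luciferase, or sgCbfb were kept on OP9 (LP) or moved to OP9-DLL4 stroma, which presents a Notch ligand (Phase 1). The second experiment held LP cells on OP9 with sgCont, sgCbfb, sgCTCF or sgMed12. CBFβ is the partner that all RUNX proteins need for stable DNA binding, CTCF is an insulator protein, and Med12 is a subunit of the Mediator complex.

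Corepressors have no sequence-specific DNA binding of their own and are brought to genes by transcription factors. RUNX proteins end in a short peptide motif that binds Groucho/TLE proteins, and they also contact ETO, SIN3 and NCOR complexes, which carry histone deacetylases that remove acetyl groups from histone tails. Because these proteins serve many transcription factors, most are made in nearly every cell type, and ETO family members are best known in blood cells.

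First-experiment libraries held 1363263 to 1743319 reads on genes, where 3 reads equal 1.72 to 2.20 CPM. Those of the second held 3354483 to 4326782, where 3 reads equal 0.693 to 0.894 CPM. *Cbfb* was lower with sgCbfb in LPs of the first experiment (40.2 against 86.5 CPM, adjusted p = 0.0055) and of the second (48.4 against 114.3 CPM, adjusted p = 4.3e-06), whereas in Phase 1 it was 53.9 against 66.5 CPM (adjusted p = 0.59). *Ctcf* was 305.7 CPM with sgCTCF and 391.0 CPM with sgCont (adjusted p = 0.021), and *Med12* was 7.01 CPM with sgMed12 and 5.14 CPM with sgCont (adjusted p = 0.66). A small edit leaves the 3′ end of a transcript in place, so these levels are no measure of editing. The paper shows immunoblots of Cbfβ, CTCF and Med12 as its check of depletion, and reports loss of the CBFβ protein. The summed CPM of 9 genes of Notch-stimulated T progenitors ranged from 259 to 383 in LP sgCont and from 1380 to 1570 in Phase 1 sgCont cells. The library of sgMed12 replicate 2 stood apart from the other 2 of its group, and leaving it out raised the genes called between sgMed12 and sgCont from 822 to 2443, so values without it are given beside the sgMed12 calls of the 9 genes and for the wider lists. Phase 1 sgCont replicate 3, the library with the fewest reads, also stood apart from its group. Leaving it out raised the genes called from 333 to 574 for sgCbfb in LPs of the first experiment. For sgCbfb Phase 1 against LP they rose from 267 to 524.

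Promoter sequences were searched for words that RUNX proteins and other factors bind. RefSeq promoter windows on GRCm38.p6, from 250 bases before to 50 after a transcript start, were used for 7 of the 9 genes, 11 windows in all. *Hdac3* was left out before the search, and *Hdac1* had no window. The windows were searched on both strands for the RUNX words TGTGGT and TGCGGT, for the RBPJ word TGGGAA, which the DNA-binding partner of Notch recognizes, and for the CTCF core word AGGGGGC. RUNX and RBPJ words were in 2 of the 11 windows, 1 of *Cbfa2t3* and 1 of *Ncor1*, and the CTCF word was in 0. Among 32851 mouse promoter windows, 22.4% hold either RUNX word, 25.6% the RBPJ word, 5.92% both kinds and 10.6% the CTCF word. The 2 windows are shown because one gene moved with sgCbfb and the other, with the same kinds of word, did not pass a test. They are not alike in place. The *Cbfa2t3* window spans the annotated 5′ end of its gene (chr8:122699109). The *Ncor1* window lies at a start site within its gene, whose annotated 5′ end is at chr11:62458541. Capitals mark TGGGAA and ACCGCA, the reverse complement of TGCGGT, in *Cbfa2t3* (chr8:122699060-122699359, minus strand), and TGTGGT and TGGGAA in *Ncor1* (chr11:62438466-62438765, minus strand).
Cbfa2t3: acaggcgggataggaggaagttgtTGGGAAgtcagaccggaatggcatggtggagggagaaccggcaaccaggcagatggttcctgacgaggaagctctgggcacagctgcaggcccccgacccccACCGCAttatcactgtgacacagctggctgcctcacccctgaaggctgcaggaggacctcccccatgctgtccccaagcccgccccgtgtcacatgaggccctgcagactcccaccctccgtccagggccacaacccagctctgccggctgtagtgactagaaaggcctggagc
Ncor1: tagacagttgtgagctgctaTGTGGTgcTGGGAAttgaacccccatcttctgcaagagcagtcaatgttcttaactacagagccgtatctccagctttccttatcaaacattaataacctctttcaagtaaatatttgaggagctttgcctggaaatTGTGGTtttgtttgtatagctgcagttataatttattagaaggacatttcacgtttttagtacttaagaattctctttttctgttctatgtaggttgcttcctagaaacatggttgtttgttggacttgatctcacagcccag
In *Cbfa2t3* the RBPJ word begins 226 bases and the RUNX word 124 bases before the start. In *Ncor1* the RUNX words begin 230 and 93 bases and the RBPJ word 222 bases before it. A second *Cbfa2t3* window (chr8:122678126-122678425) and a second *Ncor1* window (chr11:62457283-62457582) hold none of the words. A match only describes these letters, and binding was not measured in the tables used here.

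The 9 genes lay at very different levels. QuantSeq gives one read near the 3′ end of a transcript, so CPM was compared between genes without division by length. In LP sgCont cells of the first experiment, *Ncor1* was highest at 643.0 ± 15.6 CPM (SD, n = 3). It was followed by *Cbfa2t3* at 201.8 ± 36.5 CPM and *Tle3* at 198.8 ± 20.4 CPM, whose libraries overlapped. *Hdac1* had 127.5 ± 9.77 CPM, *Sin3a* 86.5 ± 8.51 CPM and *Tle4* 63.0 ± 12.7 CPM, each below the one before in every library. *Hdac3* at 21.5 ± 9.40 CPM and *Cbfa2t2* at 13.2 ± 1.51 CPM overlapped again, and *Tle1* was last at 1.18 ± 2.04 CPM. In LP sgCont cells of the second experiment the order was the same except that *Tle3* (181.5 ± 11.8 CPM) lay above *Cbfa2t3* (158.7 ± 17.2 CPM), and the libraries of this pair overlapped there too.

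**Figure D1:**
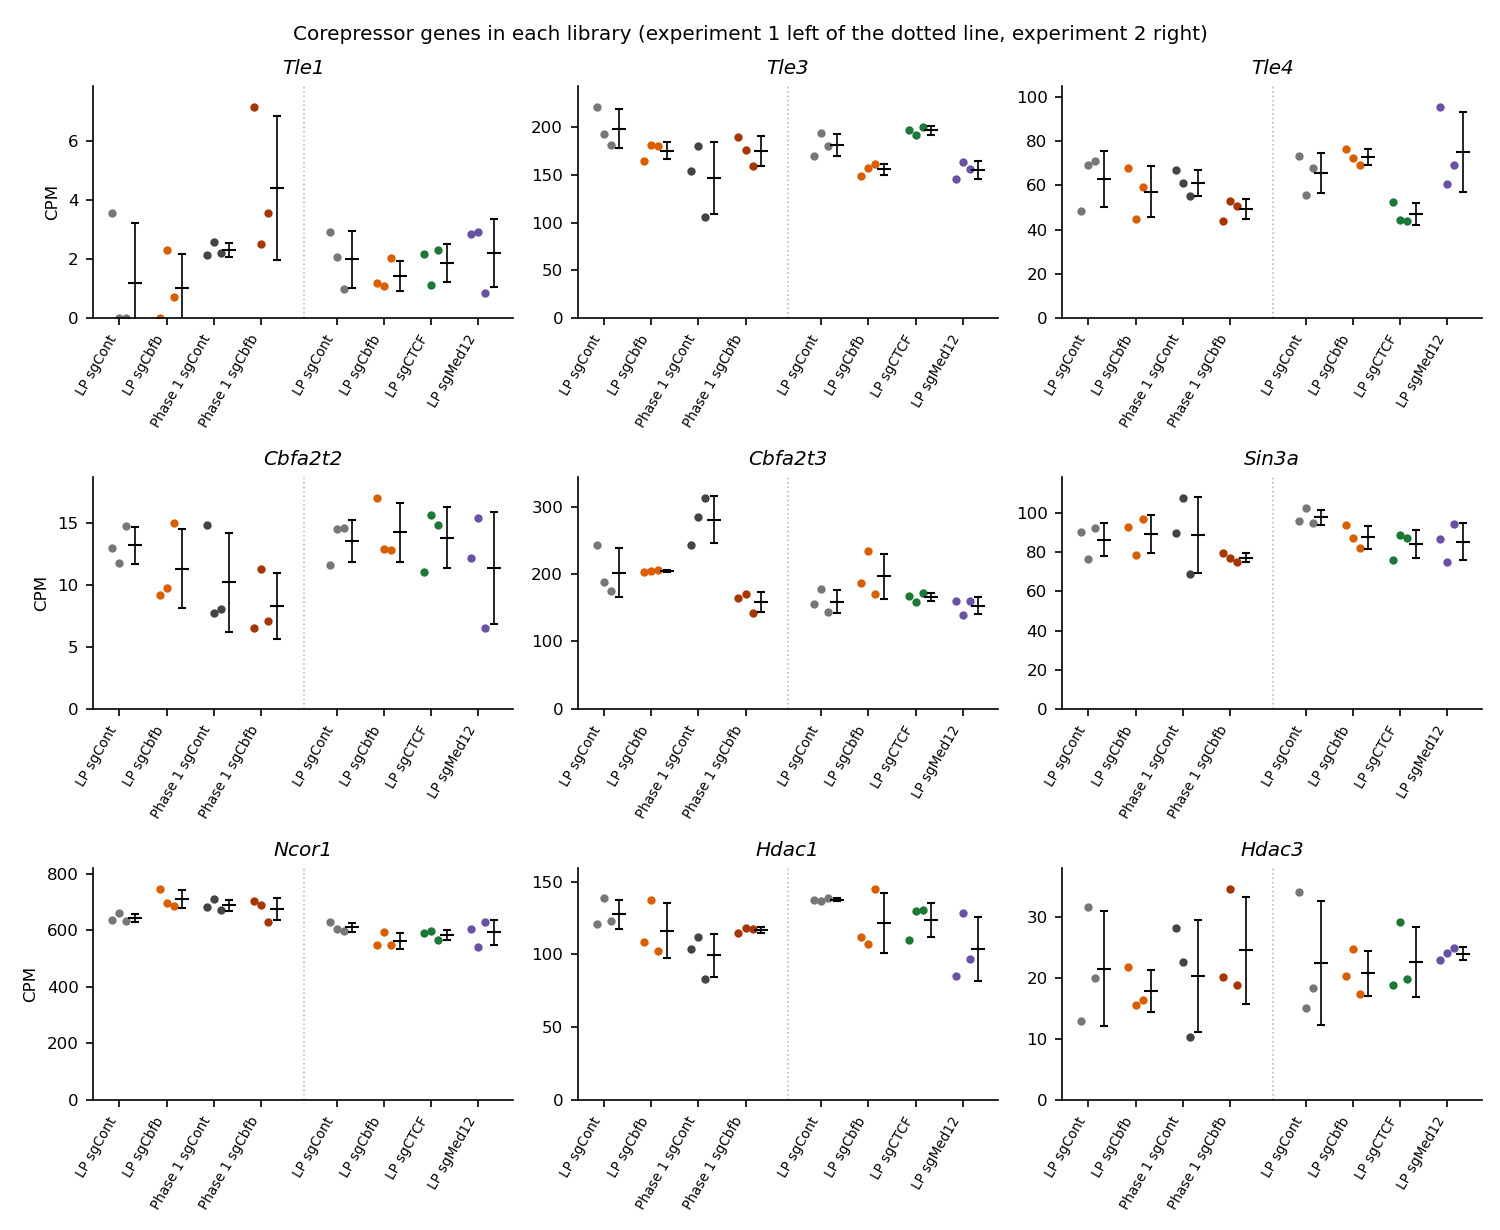
CPM of each of the 9 genes in the 24 libraries, with 1 point per library in replicate order, horizontal ticks for group means and bars for the SD (truncated at 0). Phase 1 sgCont cells hold the highest *Cbfa2t3* values (243.5 to 312.5 CPM) and sgCTCF cells the lowest *Tle4* values of the second experiment (43.7 to 52.6 CPM), while *Ncor1* and *Sin3a* are nearly level.

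Differences were tested with limma on log2(CPM + 1), with all 4 groups of an experiment in one fit and Benjamini-Hochberg adjustment over all genes fitted. A gene is called here when its adjusted p is under 0.05 and its mean is over 10 CPM in a group compared. 8 of the 9 genes had such a mean in every comparison, and *Tle1* did not. None of the 9 passed in any comparison when a log2 ratio of means over 1 was also required. Under that stricter rule 2.6% of all genes were called with sgCbfb in LPs of the first experiment, 5.44% in Phase 1, and 5.22% and 1.84% between Phase 1 and LP in sgCont and sgCbfb cells. In the second experiment it called 6.69% with sgCbfb, 3.78% with sgCTCF and 1.61% with sgMed12 against sgCont. Between the perturbations it called 10.4% for sgCTCF against sgCbfb, 6.84% for sgMed12 against sgCbfb and 6.16% for sgMed12 against sgCTCF.

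The clearest change was in *Cbfa2t3*, which encodes ETO2, a corepressor of hematopoietic progenitors that works with SCL and E proteins. Phase 1 sgCont libraries had 243.5, 284.5 and 312.5 CPM of *Cbfa2t3*, and Phase 1 sgCbfb libraries had 164.7, 170.3 and 142.0 CPM. Every sgCbfb library lay below every sgCont library. *Cbfa2t3* fell by 0.81 on the log2 scale (SE 0.14, 95% confidence interval -1.11 to -0.52, adjusted p = 0.00069), a ratio of means of 0.568. It was the only one of the 8 genes called in this comparison, in which 7.91% of all genes were called. The other 7 had adjusted p from 0.38 (*Tle3*) to 0.92 (*Ncor1*). The adjusted p of *Cbfa2t3* was 9.5e-05 to 0.03 under 9 other settings and 0.00033 to 0.0093 when each library was left out. Summed CPM of 8 myeloid markers was 48.0 to 63.1 in Phase 1 sgCont and 283 to 301 in Phase 1 sgCbfb libraries, with 2 and 3 of the markers over 10 CPM and 0 and 1 without a read. *Mrc1* (1.62 to 209.5 CPM) and *Fcgr3* (13.9 to 53.3 CPM) carried that sum, and by group mean 4 of the 8 markers were higher and 4 lower with sgCbfb. The Notch-stimulated T progenitor markers summed to 1380 to 1570 and to 950 to 1040 CPM, with 6 of 9 lower with sgCbfb, such as *Tcf7* (147.5 to 12.7 CPM), and 3 higher, such as *Notch1* (533.8 to 646.6 CPM). The part of either list in the *Cbfa2t3* result was not tested. In bulk samples, fewer cells of a type and less RNA per cell cannot be told apart.

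In LPs of the first experiment no change of *Cbfa2t3* with sgCbfb was detected. LP sgCont libraries had 243.2, 188.2 and 174.1 CPM and LP sgCbfb libraries 203.1, 204.8 and 206.2 CPM, all 3 of which lay inside the sgCont range. The log2 difference was 0.04 (95% confidence interval -0.26 to 0.33, adjusted p = 0.97). None of the 8 genes was called in this comparison by limma or by edgeR, against 3.87% of all genes by limma. By unadjusted limma p under 0.05 it was 0 of the 8, and the share of all genes at that level was not counted. Myeloid marker sums were 48.8 to 80.3 and 342 to 353 CPM, mostly from *Mrc1* (4.86 and 221.1 CPM). Without *Mrc1* they were 46.9 to 73.2 and 119 to 135 CPM.

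The difference between the 2 sgCbfb effects was tested as an interaction. It came to -0.85 on the log2 scale for *Cbfa2t3* (SE 0.20, 95% confidence interval -1.26 to -0.43, adjusted p = 0.036), with 1 of 8 genes and 1.74% of all genes called. This call was lost without a filter on low values (adjusted p = 0.055), without the variance trend (0.24), and when any of 9 of the 12 libraries was left out (0.061 to 0.13). The 3 that could be left out with the call kept were replicate 1 of LP sgCont and replicates 1 and 3 of Phase 1 sgCont.

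With Notch stimulation of sgCont cells, from LP to Phase 1, *Cbfa2t3* was higher. The Phase 1 values of 243.5 to 312.5 CPM began just above the highest LP value of 243.2 CPM, so the groups did not overlap. The log2 difference was 0.48 (SE 0.14, adjusted p = 0.045), with 1 of 8 genes and 8.44% of all genes called. This call was near the threshold, and leaving out any library but replicate 1 of LP sgCont or replicate 1 of Phase 1 sgCont gave an adjusted p of 0.053 to 0.19. The call was also lost under 4 of 9 other settings, with adjusted p from 0.051 to 0.2. *Tle3* and *Hdac1* lay lower in Phase 1 sgCont cells without passing the test (log2 differences of -0.47 and -0.36, adjusted p = 0.097 and 0.19). Both had their lowest value (105.6 and 82.9 CPM) in Phase 1 sgCont replicate 3, the library that stood apart from its group. *Cbfa2t3* was highest in that library, and without it the *Cbfa2t3* log2 difference was 0.40 (adjusted p = 0.088). In sgCbfb cells the Phase 1 *Cbfa2t3* values, 142.0 to 170.3 CPM, lay below the LP values, 203.1 to 206.2 CPM, but the log2 difference of -0.37 (95% confidence interval -0.66 to -0.07) had an adjusted p of 0.25. In that comparison limma and edgeR called 0 of 8 genes, against 3.11% of all genes by limma. Of the 8, 1 had an unadjusted p under 0.05, a level at which the share of all genes was not counted.

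LPs of the second experiment, sequenced more deeply, gave the LP comparison again. *Cbfa2t3* had 155.6, 177.2 and 143.2 CPM in sgCont, 186.0, 233.6 and 169.8 CPM in sgCbfb, 167.2, 159.0 and 171.7 CPM in sgCTCF, and 160.2, 138.6 and 160.1 CPM in sgMed12 libraries. The sgCbfb libraries overlapped those of sgCont and sgCTCF and lay above all 3 of sgMed12. Against sgCont the sgCbfb log2 difference was 0.30 (95% confidence interval 0.06 to 0.54, adjusted p = 0.11), and 0.042 when sgMed12 replicate 2 was left out of the fit. By limma and edgeR, 0 of the 8 genes were called between sgCbfb and sgCont, where 14.9% of all genes were called by limma. Of the 8, 2 had an unadjusted p under 0.05, a level at which the share of all genes was not counted. Myeloid marker sums were 57.0 to 64.3 CPM in sgCont and 535 to 643 CPM in sgCbfb libraries, mostly from *Mrc1* (6.23 and 471.6 CPM), and 52.7 to 58.7 and 88.4 to 135 CPM without it. *Cbfa2t3* was lower in sgMed12 than in sgCbfb cells by a log2 difference of -0.35 (SE 0.12, adjusted p = 0.043), the only one of 8 genes called where 20.8% of all genes were. That call was lost under 5 of 9 other settings and without any of 8 of the 12 libraries (adjusted p 0.056 to 0.27). Without sgCbfb replicate 2 the log2 difference was -0.22 (adjusted p = 0.27), and without sgMed12 replicate 2 it was -0.28 (adjusted p = 0.069).

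*Tle4*, a Groucho family corepressor with roles in blood and B cell progenitors, was lowest in sgCTCF cells. Its libraries had 73.3, 55.5 and 67.9 CPM in sgCont, 76.6, 72.4 and 69.3 CPM in sgCbfb, 52.6, 44.3 and 43.7 CPM in sgCTCF, and 95.5, 60.7 and 69.3 CPM in sgMed12. All 3 sgCTCF values lay below all 9 others of the second experiment. *Tle4* was lower with sgCTCF than with sgCbfb by a log2 difference of -0.63 (SE 0.15, 95% confidence interval -0.94 to -0.32, adjusted p = 0.0031) and higher with sgMed12 than with sgCTCF by 0.65 (SE 0.15, 95% confidence interval 0.34 to 0.96, adjusted p = 0.0035). These 2 comparisons share the sgCTCF libraries. Both calls stood under 9 other settings and with each library left out, with adjusted p of at most 0.029 and 0.035. Without sgMed12 replicate 2 the second difference was 0.79 (adjusted p = 0.00012).

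Against sgCont, the fall of *Tle4* with sgCTCF was 0.47 on the log2 scale and lay near the threshold (SE 0.15, adjusted p = 0.046). It was the only one of 8 genes called, where 12.8% of all genes were. The call was lost under 6 of 9 other settings, edgeR included (adjusted p = 0.061), and without 9 of the 12 libraries, with adjusted p from 0.052 to 0.21, highest without sgCont replicate 1. Myeloid marker sums were 94.4 to 126 CPM in sgCTCF libraries, above the 57.0 to 64.3 CPM of sgCont. *Fcgr3* (37.97 to 80.9 CPM) carried that difference, 4 of the 8 markers were higher by group mean and 3 lower, and their part in the result was not tested. In the first experiment *Tle4* had group means of 49.2 to 63.0 CPM, and the largest of its 4 tested pairwise log2 differences, -0.31 for sgCbfb in Phase 1 (95% confidence interval -0.74 to 0.13), did not pass the test.

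*Tle3*, the Groucho family member with the highest level here, had its highest group mean of the second experiment in sgCTCF cells, without being called against sgCont. It had 170.1, 193.7 and 180.7 CPM in sgCont, 149.1, 156.9 and 161.5 CPM in sgCbfb, 197.5, 192.1 and 200.8 CPM in sgCTCF, and 145.5, 164.2 and 156.7 CPM in sgMed12 libraries. The sgCTCF libraries overlapped only those of sgCont, and the sgCbfb and sgMed12 libraries lay below all of sgCont and sgCTCF. *Tle3* was higher with sgCTCF than with sgCbfb by 0.34 on the log2 scale (SE 0.10, adjusted p = 0.015), and lower with sgMed12 than with sgCTCF by a difference of -0.34 (SE 0.10, adjusted p = 0.017). With *Tle4* this made 2 of 8 genes called between sgCTCF and sgCbfb, where 26.1% of all genes were called, and 2 of 8 between sgMed12 and sgCTCF, where 24.5% were. The first *Tle3* call was lost without the variance trend (adjusted p = 0.056), without sgCbfb replicate 1 (0.061) and without sgCTCF replicate 3 (0.057). Without sgMed12 replicate 2 the second difference was -0.38 (adjusted p = 0.0031). That call was lost when only the compared groups were fitted (0.051), without the trend (0.063), and without sgCTCF replicate 1 (0.055), sgCTCF replicate 3 (0.063) or sgMed12 replicate 1 (0.063). Against sgCont, log2 differences were -0.22 for sgCbfb and -0.22 for sgMed12 (adjusted p = 0.17 for each) and 0.12 for sgCTCF (adjusted p = 0.54).

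*Tle3* in the first experiment had 221.3, 193.2 and 181.8 CPM in LP sgCont, 165.0, 181.3 and 180.5 CPM in LP sgCbfb, 153.9, 180.0 and 105.6 CPM in Phase 1 sgCont, and 190.0, 176.6 and 159.1 CPM in Phase 1 sgCbfb libraries. The LP sgCont libraries lay above both LP sgCbfb and Phase 1 sgCont libraries, and other groups overlapped. No *Tle3* difference was called, and that of Phase 1 against LP in sgCont cells passed only without Phase 1 sgCont replicate 2 (adjusted p = 0.025). *Tle1*, the third Groucho family member, was near the limit of counting. It had 0 to 11 reads per library and group means of 1.002 to 4.39 CPM, so that no difference was given for it.

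*Cbfa2t2*, which encodes the ETO family member MTGR1, was lowly expressed at 6.48 to 17.0 CPM per library. Its group means ran from 8.29 CPM in Phase 1 sgCbfb to 14.2 CPM in sgCbfb LPs of the second experiment. In the first experiment its confidence intervals spanned over 1 log2 unit, from -1.09 to 0.63 for sgCbfb in LPs and from -1.11 to 0.61 in Phase 1. Changes of the size seen for *Cbfa2t3* in Phase 1 lie inside both intervals, so these data neither show nor exclude them. In the second experiment the interval for sgCbfb against sgCont was -0.48 to 0.60.

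The scaffolds had the smallest ratios of highest to lowest mean over the 8 groups, 1.26 for *Ncor1* and 1.27 for *Sin3a*. *Ncor1*, which encodes a large nuclear receptor corepressor that activates HDAC3, had group means of 643.0, 709.1, 687.8 and 674.3 CPM in LP sgCont, LP sgCbfb, Phase 1 sgCont and Phase 1 sgCbfb cells. In the second experiment its means were 610.0, 563.1, 583.4 and 592.3 CPM with sgCont, sgCbfb, sgCTCF and sgMed12. Within an experiment, the highest group mean was at most 1.1 times the lowest. Its log2 differences from sgCont had intervals of -0.06 to 0.34 for sgCbfb in LPs of the first experiment, -0.23 to 0.17 in Phase 1, -0.30 to 0.07 for sgCbfb in the second experiment, -0.25 to 0.12 for sgCTCF and -0.23 to 0.14 for sgMed12. *Ncor1* shares 82 exonic bases with *Pigl* and 1 with *Ttc19* on the opposite strand in GENCODE M21. Those genes had at most 11.999 and 22.5 CPM, far below *Ncor1*.

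*Sin3a*, the scaffold of the SIN3 complex that carries HDAC1 and HDAC2, had group means of 77.3 to 97.8 CPM, and within each experiment the highest was 1.16 times the lowest. In the second experiment the sgCont libraries, 96.0, 102.5 and 94.97 CPM, lay above all sgCbfb, sgCTCF and sgMed12 libraries, which reached 93.9, 89.1 and 94.2 CPM. The log2 differences of -0.16, -0.22 and -0.20 did not pass the test (adjusted p = 0.48, 0.29 and 0.33). In the first experiment *Sin3a* libraries overlapped in all 4 pairwise comparisons, with intervals of -0.32 to 0.42 for sgCbfb in LPs and -0.54 to 0.19 in Phase 1.

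*Hdac1*, the class I deacetylase of the SIN3, NuRD and CoREST complexes, had a result that changed with 1 library and with the model fitted. It had 137.4, 136.4 and 138.6 CPM in sgCont and 85.3, 128.2 and 97.1 CPM in sgMed12 libraries, and the groups did not overlap. The log2 difference was -0.43 (SE 0.14, 95% confidence interval -0.71 to -0.15), and its adjusted p of 0.055 missed the threshold. With the replicate number as a block in the fit and all libraries kept, its adjusted p was 0.047. Limma and edgeR called 0 of 8 genes between sgMed12 and sgCont, where limma called 9.74% of all genes. Of the 8, 2 had an unadjusted p under 0.05, a level at which the share of all genes was not counted. Without sgMed12 replicate 2, the library at 128.2 CPM, the difference was -0.59 (adjusted p = 0.0006), and differences from sgCbfb (-0.40, adjusted p = 0.014) and sgCTCF (-0.43, adjusted p = 0.0067) passed as well. The other *Hdac1* libraries of the second experiment had 112.1, 107.0 and 144.9 CPM with sgCbfb and 110.0, 129.8 and 130.8 CPM with sgCTCF. Of these, only 1 sgCbfb value reached the sgCont level.

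In the first experiment *Hdac1* had 121.0, 138.7 and 122.7 CPM in LP sgCont, 108.6, 137.7 and 102.0 CPM in LP sgCbfb, 103.8, 111.6 and 82.9 CPM in Phase 1 sgCont, and 114.8, 118.1 and 117.3 CPM in Phase 1 sgCbfb libraries. Phase 1 sgCont libraries lay below those of LP sgCont and Phase 1 sgCbfb, and none of these differences was called. *Hdac3*, the deacetylase of NCOR complexes, had group means of 17.9 to 24.5 CPM and libraries of 10.3 to 34.6 CPM. Its group ranges overlapped in all 10 pairwise comparisons, and its interval for sgCbfb in Phase 1 was -0.50 to 1.12.

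**Figure D2:**
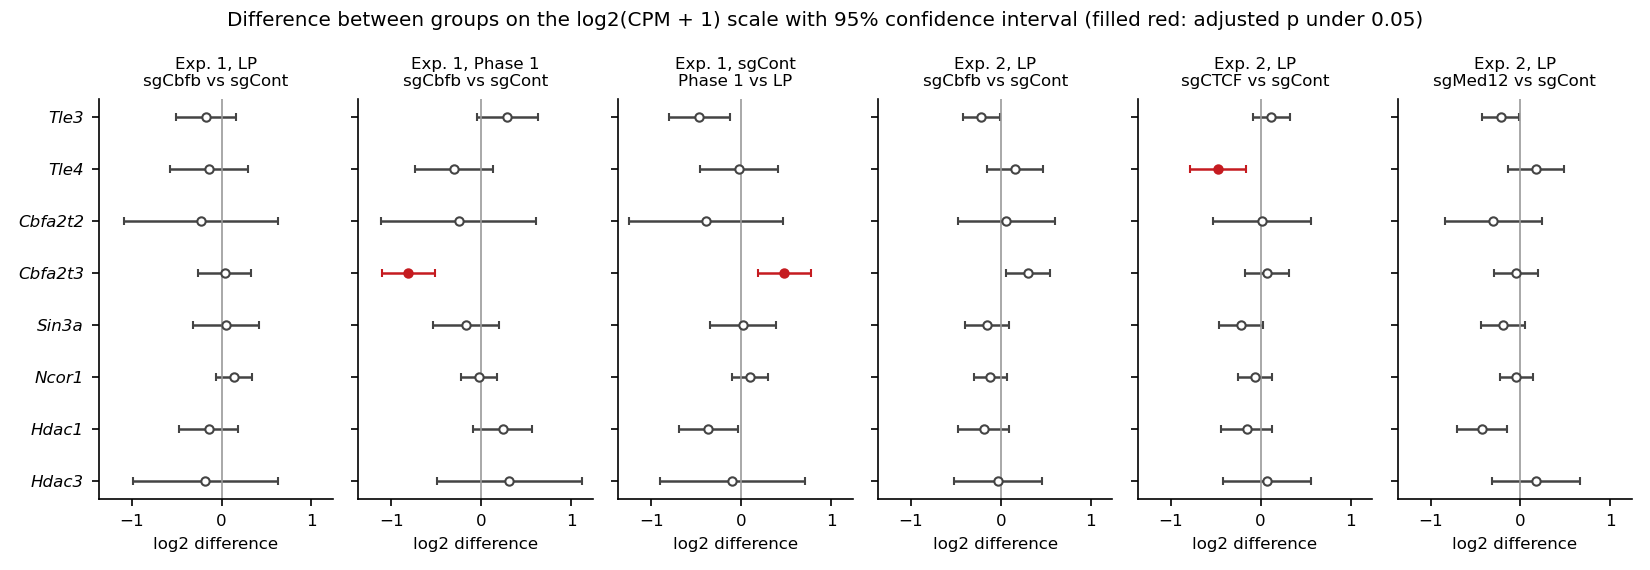
Log2 difference (points) and 95% confidence interval (bars) on the log2(CPM + 1) scale for the 8 genes above a mean of 10 CPM, in 6 comparisons. Filled red points were called. They are *Cbfa2t3* with sgCbfb in Phase 1 (-0.81) and with Notch stimulation of sgCont cells (0.48), and *Tle4* with sgCTCF (-0.47).

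As a description with no test, the median absolute log2 difference of the 8 genes was 0.14 against 0.22 for all genes with sgCbfb in LPs of the first experiment, 0.27 against 0.27 in Phase 1, 0.16 against 0.19 with sgCbfb in the second experiment, 0.09 against 0.20 with sgCTCF and 0.19 against 0.21 with sgMed12. How firmly each of the 9 called differences stood is shown by its adjusted p under the other settings.

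**Figure D3:**
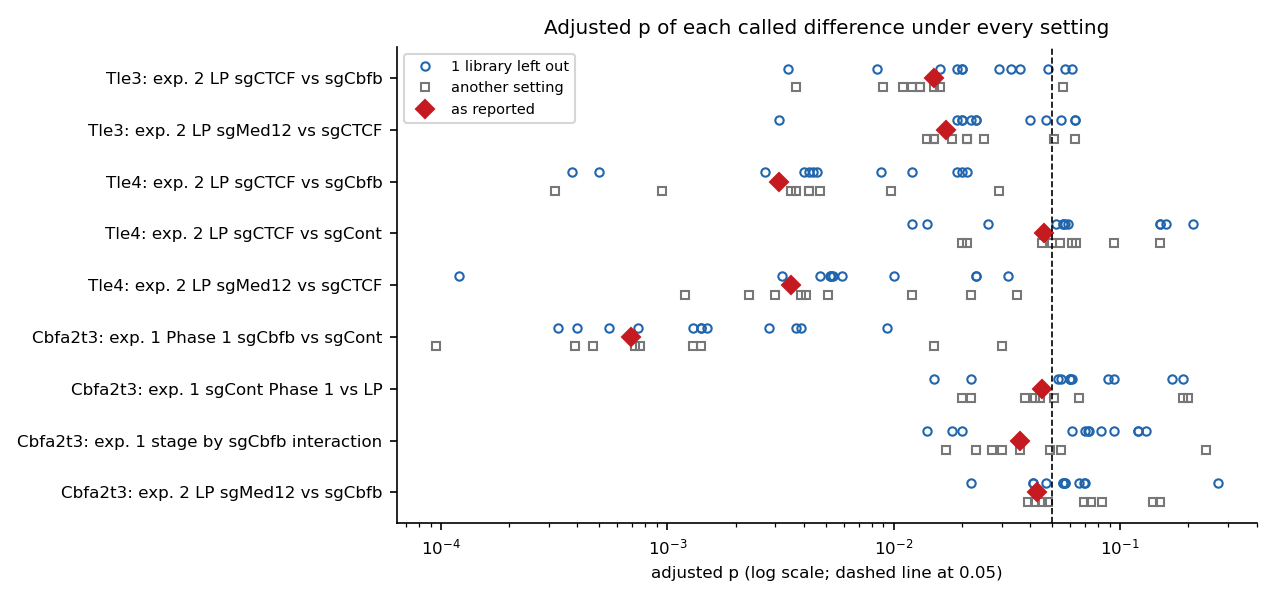
Adjusted p (log axis) of the 9 called differences as reported (red diamonds), under other settings (grey squares) and with each library left out (blue circles). *Cbfa2t3* with sgCbfb in Phase 1 and *Tle4* between sgCTCF and both sgCbfb and sgMed12 stay left of the line at 0.05, and the other 6 cross it.

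The wider machinery was described with 54 further genes of the Groucho, ETO, SIN3, NCOR, histone deacetylase, CoREST and NuRD families. With sgCbfb in Phase 1, 3 of 45 expressed genes rose and 3 fell, beside 4.53% and 3.38% of all genes. Of the class IIa deacetylases, *Hdac5* was higher by 1.23 on the log2 scale (adjusted p = 0.0062) and *Hdac4* lower, a log2 difference of -1.28 (adjusted p = 0.0063), while *Hdac7* and *Hdac9* were not called (adjusted p = 0.17 and 0.83). *Phf21a* of the CoREST complex rose by 0.77, and *Gse1* of CoREST and *Mta3* of NuRD had log2 differences of -1.34 and -0.86. These 6 calls were 3 with only the compared groups in the fit, where calls over all genes fell from 678 to 415. In LPs of the first experiment the 1 called gene of 45 was *Hdac7*, another class IIa deacetylase, which rose by 0.59 (adjusted p = 0.0062), where 2.42% of all genes rose and 1.45% fell.

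Notch stimulation of sgCont cells changed 4 of 44 expressed genes of the wider lists, with *Hdac4* higher by 0.95 and *Hdac5* (-1.69), *Phf21a* (-0.99) and *Rcor2* of CoREST (-0.89) lower. Of all genes 4.01% rose and 4.43% fell. The 4 calls fell to 1 with only the compared groups, where calls over all genes fell from 726 to 334. The 4 calls also fell to 1 without the variance trend. *Hdac5* had 59.8 ± 9.87 CPM in LP sgCont and 18.5 ± 6.94 CPM in Phase 1 sgCont cells, against 43.8 ± 10.2 and 42.9 ± 5.73 CPM with sgCbfb. Its interaction of 1.68 (SE 0.38, adjusted p = 0.026) was the 1 call of 45, where 0.867% of all genes were called upward and 0.878% downward. In sgCbfb cells limma called 0 of 45 genes between Phase 1 and LP, beside 1.71% of all genes upward and 1.4% downward.

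In the second experiment sgCbfb raised 2 and lowered 5 of 45 genes, beside 7.84% and 7.09% of all genes. These 7 calls were 11 with only the compared groups, 3 without the trend and 12 without sgMed12 replicate 2. Calls over all genes were 1272, and 1421, 943 and 1675 under the same changes. *Phf21a* rose by 0.46, while *Hdac9* (-2.32), *Sap30* of SIN3 (-1.11) and *Mta3* (-0.81, adjusted p = 6.4e-05) had the largest falls. *Mta3* had 76.1 ± 9.07 CPM with sgCont, 43.1 ± 5.12 CPM with sgCbfb and 110.0 ± 10.9 CPM with sgCTCF, and its rise of 0.53 with sgCTCF (adjusted p = 0.009) was the only one among 46 genes, where 6.92% of all genes rose and 5.9% fell. The 3 genes that fell with sgCTCF were *Rcor2* (-0.64), the demethylase gene *Kdm1a* (-0.39) and *Ing1* (-0.34). With sgMed12, 1 of 45 genes rose, *Hdac4* by 0.63, and 7 fell, led by *Rcor2* (-1.09, adjusted p = 0.00019), *Hdac5* (-0.90) and *Ing1* (-0.48), beside 2.62% and 7.12% of all genes. These 8 calls were 0 with only the compared groups, 2 without the trend, 5 with edgeR and 19 without sgMed12 replicate 2. Calls over all genes were 822, and 24 with only the compared groups, 684 with edgeR and 2443 without sgMed12 replicate 2. Without that library *Rcor2* (-1.31), *Hdac5* (-0.91), *Ing1* (-0.43) and *Hdac4* (0.70) still passed, with adjusted p of at most 0.0042. *Tle5*, a short Groucho relative that lacks most of the corepressor part, had 163.3 ± 12.3 CPM with sgCont, 123.2 ± 10.8 with sgCbfb, 199.5 ± 13.0 with sgCTCF and 199.2 ± 18.7 with sgMed12. It was higher than with sgCbfb by 0.69 for both sgCTCF (adjusted p = 2.5e-05) and sgMed12 (adjusted p = 4.2e-05). Against sgCont, *Tle5* was called lower with sgCbfb, by 0.405 on the log2 scale, and was not called with sgCTCF or sgMed12. Without sgMed12 replicate 2, its sgMed12 difference from sgCont of 0.36 passed (adjusted p = 0.013). For sgCTCF against sgCbfb, 5 of 46 genes rose and 3 fell, beside 13.3% and 12.8% of all genes. For sgMed12 the counts were 3 up and 8 down of 44 against sgCbfb (8.04% and 12.7% of all genes), and 1 up and 7 down of 45 against sgCTCF (9.18% and 15.3%). Without sgMed12 replicate 2 the calls numbered 17, 20 and 17 in these comparisons, in place of 8, 11 and 8. Calls over all genes rose as well, from 2260 to 2774, from 1794 to 2916 and from 2105 to 3296.

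**Figure D4:**
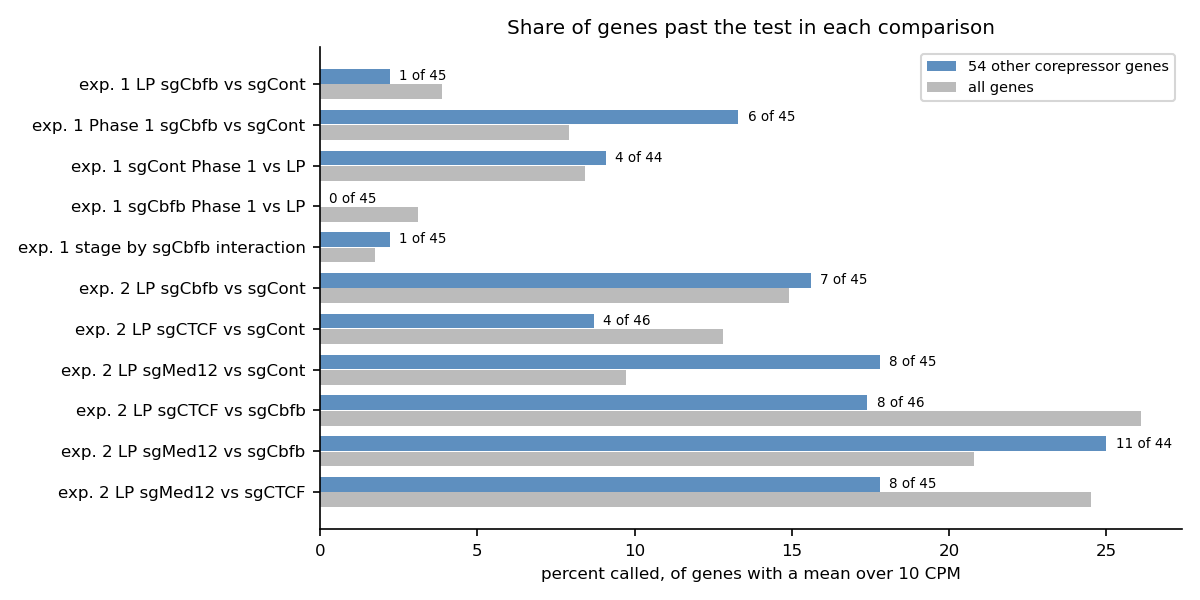
Percent of genes called in each of 11 comparisons, for the 54 further corepressor genes (blue, with the number called of those averaging over 10 CPM) and for all genes (grey). The list ran from 0 to 25.0% and all genes from 1.74% to 26.1%, and neither was higher throughout.

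Among the RUNX genes themselves, *Runx1* was higher with sgCbfb in LPs (386.0 ± 60.3 to 779.5 ± 82.3 CPM, log2 difference 1.02, adjusted p = 1.3e-05), in Phase 1 (278.2 ± 18.97 to 603.1 ± 35.3 CPM, 1.11, adjusted p = 2.1e-06) and in the second experiment (257.0 ± 23.0 to 597.9 ± 46.7 CPM, 1.22, adjusted p = 1.2e-09). *Runx2* was higher with sgCbfb in Phase 1 (24.1 ± 7.72 to 74.5 ± 11.9 CPM, 1.62, adjusted p = 0.00013), and its LP difference in the first experiment was -0.11 (adjusted p = 0.94). In the second experiment sgCbfb raised it by 0.55 (adjusted p = 0.025). *Runx3* had no called difference between sgCbfb and sgCont, and none of the 3 RUNX genes was called with sgCTCF or sgMed12 against sgCont.

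For the 3 genes whose group means varied most, the genes with the most similar course over the 24 libraries were found by Pearson's r on log2(CPM + 1) centered within each experiment. For *Cbfa2t3* they were *Tmem131* (0.777), *Ganc* (0.743) and *Zfp652* (0.735), and for *Tle4* *Rad50* (0.838), *Zfas1* (0.762) and *Mtbp* (0.762). For *Tle1*, which is near the counting limit, they were *Pop5* (0.691), *Rgs2* (0.682) and *Map2k2* (0.668). The libraries share depth and groups, 7098 other genes were compared with *Cbfa2t3* and *Tle4*, and r is given as a description.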

How the data were processed

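QuantSeq 3′ mRNA libraries (3 per group, described in the study as biologically independent) were analysed. Per the labels and the study's methods, the authors used fastp for trimming and STAR for mapping (mm10), and deposited 1 CPM value per gene and library (named TPM). Annotation version and strand setting are not given in the sources used here. Values were whole multiples of 1 read in at least 99.98% of cases (within 0.0011 CPM), so reads were recovered for edgeR. A line without an identifier, holding 1 read, was left out. Genes reaching 1 CPM in 3 or more libraries (13239 and 13177) went into limma 3.58.1 on R 4.3.3 (trended variances, log2(CPM + 1)), since the study's test is not named. EdgeR 4.0.16 was an alternative. Groups were taken from the labels, and all 4 groups of an experiment shared a fit. The fit was tested on simulated data. Positions and exons are from GENCODE M21 (GRCm38). Named are all members, the targets, up to 3 called risers and fallers per comparison from the wider lists, and the 3 most alike genes for the 3 most variable members. Some genes that this rule names are not reported here. Members and lists were chosen with earlier results of these data known. Other settings were pseudocounts of 0.1 and 5, no filter, median-of-ratios scaling, only genes over 10 CPM, the replicate block, only the compared groups, edgeR, no trend, the study's fold threshold, and each library left out. A two-sided exact permutation test of 3 against 3 libraries cannot go below 0.1.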

Additional observations from a re-analysis of the deposited data

Results flagged for a closer look

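The sgCbfb effect on *Cbfa2t3* differed between stages by a test of the difference itself, the interaction in limma, which came to -0.85 on the log2 scale (SE 0.20, adjusted p = 0.036). In Phase 1 the log2 difference between sgCbfb and sgCont was -0.81, with all 3 sgCbfb libraries below all 3 sgCont libraries, and in LPs it was 0.04, with overlapping libraries. The interaction lost its call under 2 other settings and without any of 9 of the 12 libraries. The myeloid marker sum was higher with sgCbfb at both stages, at 342 to 353 CPM in LPs and 283 to 301 CPM in Phase 1. *Mrc1* carried it (221.1 and 209.5 CPM with sgCbfb), 4 of the 8 markers were lower with sgCbfb in Phase 1, and the part of the list in the result was not tested.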

How the results depend on the processing

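Over 99 pairs of a member and a comparison, 2149 refits gave 2074 results on the same side of the threshold, 69 lost calls and 6 gained calls. Direction was part of this count only where a difference was called, and 0 called differences reversed. Among uncalled pairs, 40 changed sign at least once, and those refits are within the 2074. With the study's fold threshold, 0 members were called in any comparison. The sgCont Phase 1 call fell from 1 member to 0 with a pseudocount of 0.1, without the filter, with only the compared groups and without the trend, and the interaction call from 1 to 0 without the filter and without the trend. The sgCTCF call against sgCont fell from 1 to 0 with pseudocounts of 0.1 and 5, without the filter, with median-of-ratios scaling, with edgeR and without the trend. The sgMed12 call against sgCbfb fell from 1 to 0 without the filter, with median-of-ratios scaling, with only the compared groups, with edgeR and without the trend. Without the trend the 2 calls of sgCTCF against sgCbfb and the 2 of sgMed12 against sgCTCF fell to 1, and with only the compared groups the latter also fell to 1. The cause was not tested. With each library left out, members called ranged from 0 to 0 for sgCbfb in LPs and for sgCbfb Phase 1 against LP in the first experiment, and from 1 to 1 for sgCbfb in Phase 1. They ranged from 0 to 1 for sgCont Phase 1 against LP, the interaction, sgCbfb, sgCTCF and sgMed12 against sgCont in the second experiment, and sgMed12 against sgCbfb. They ranged from 1 to 2 for sgCTCF against sgCbfb and from 1 to 3 for sgMed12 against sgCTCF. Calls over all genes between sgMed12 and sgCont were 822, 24 with only those groups, 176 without sgMed12 replicate 3 and 2443 without replicate 2. With only the compared groups, calls over all genes fell from 678 to 415 for sgCbfb in Phase 1, from 726 to 334 for sgCont Phase 1 against LP and from 1794 to 1094 for sgMed12 against sgCbfb, and rose from 1084 to 1593 for sgCTCF and from 1272 to 1421 for sgCbfb against sgCont in the second experiment and from 2260 to 2816 for sgCTCF against sgCbfb. Without the trend they fell from 333 to 212 for sgCbfb in LPs of the first experiment, from 267 to 153 for sgCbfb Phase 1 against LP, from 157 to 73 for the interaction, from 1084 to 690 for sgCTCF against sgCont and from 2105 to 1338 for sgMed12 against sgCTCF. Leaving out a library gave 222 to 574 calls for sgCbfb in LPs of the first experiment (highest without Phase 1 sgCont replicate 3), 477 to 898 for sgCont Phase 1 against LP, 171 to 524 for sgCbfb Phase 1 against LP (highest again without Phase 1 sgCont replicate 3), 102 to 223 for the interaction and 658 to 1583 for sgCTCF against sgCont. It gave 1286 to 2916 for sgMed12 against sgCbfb and 1348 to 3296 against sgCTCF, both highest without sgMed12 replicate 2.

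With the replicate number as a block, sgMed12 against sgCont called 1 member in place of 0 (*Hdac1*, adjusted p = 0.047), and no other member call changed. Same-numbered libraries were weakly alike. Their deviations from group means correlated over 0.1 in 2 of 18 pairs (r from -0.04 to 0.14) in the first experiment and 5 of 18 (-0.13 to 0.22) in the second. The median r was 0.041 for same and -0.02 for different numbers in the first experiment, and 0.074 and -0.026 in the second. With the block, calls over all genes rose in every comparison, such as from 726 to 833 for sgCont Phase 1 against LP. The main fit left out any effect that same-numbered libraries share.

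Calls among the 54 further corepressor genes, over the other settings and then with each library left out, ran from 0 to 2 and 0 to 2 for sgCbfb in LPs of the first experiment, 0 to 1 and 0 to 1 for the interaction, 3 to 7 and 4 to 8 for sgCbfb in Phase 1, 1 to 6 and 2 to 6 for sgCont Phase 1 against LP, 2 to 11 and 4 to 12 for sgCbfb, 0 to 8 and 0 to 8 for sgCTCF, and 0 to 8 and 3 to 19 for sgMed12 against sgCont in the second experiment. Depth limits *Tle1*, at 0 to 11 reads per library.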
